A study of Mus musculus with 35 samples.

Results

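Joubert syndrome, Meckel syndrome and nephronophthisis are recessive disorders of the primary cilium. A list of 31 genes grouped under these names was followed here across 6 tissues of the mouse embryo. The genes were taken from the list by symbol, a rule that uses no measured value, and all 31 were found among the 30723 gene symbols of the tables. The list itself was chosen with earlier results of these data known. Tsga14, the symbol used in the tables, is the gene now called Cep41. RNA was sequenced in 35 libraries of wild type CD1 embryos at embryonic day 11.5: 5 of the maxillary prominence (MXP) and 6 each of limb, ventral brain (vB), dorsal brain (dB), and the mandibular (MNP) and frontonasal (FNP) prominences. The 3 prominences form the face and were grouped as facial tissue, and dB and vB as neural tissue, although the sample labels call the last pair dorsal and ventral neural tube. No group carried an allele or received an agent, and each library was a pool of tissue from several embryos, so differences between single embryos could not be seen. The replicates are described as independent pools. The p-values measure the spread between the libraries of a tissue, which also came from different sequencing runs. Libraries with the same replicate number deviated together across tissues, as given at the end, and the main fit took them as unpaired.

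The primary cilium is a single antenna-like projection of the cell that receives Hedgehog signals, and its base is closed by the transition zone, a gate that controls which membrane proteins enter. Most proteins of Joubert and Meckel syndrome are parts of this gate or depend on it, while several proteins of nephronophthisis lie at its inner side or in the inversin compartment just above it. Patients have malformations of the midbrain and hindbrain, cystic kidneys, extra digits and, in part of the cases, clefts of the face. The tissues sampled therefore include several in which these disorders show. The paper places the dB and vB dissections in forebrain and midbrain, and names neither hindbrain nor kidney among the tissues sampled.

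Of the 14 members in the MKS and tectonic complex of the transition zone, 9 were higher in the brain than in the face, and Ahi1, Tmem107, Tmem237 and Tctn2 had the largest of these differences. The role groups, this complex among them, were drawn up with earlier results of these data known. Arl13b, Cep164, Nek8 and 4 other members outside that complex were lower in neural tissue. Over all 31 members 12 were higher and 7 lower, where 26.8% of all genes tested were higher and 26.8% lower. Tsga14 stood apart from the other members, with a mean of 14.8 FPKM in limb and of 5.92 to 7.14 FPKM in the other tissues. A 2-fold difference between some pair of tissues was reached by 3 of the 31 members and by 21.3% of all genes, while the median absolute difference between neural and facial tissue on the log2 scale was 0.28 over the members and 0.24 over all genes.

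Expression was measured as FPKM (fragments per kilobase of transcript, scaled to the mapped fragments of the library), summed over the transcripts of a gene, and compared as log2(FPKM + 1) in limma for the 13934 genes whose mean reached 1 FPKM in any tissue. A difference was called at a Benjamini-Hochberg adjusted p under 0.05. Because of the added 1, genes with few FPKM show less change on this scale than in FPKM. All 31 members passed the filter, and none was at 0 in any library. Their mean over all libraries ran from 1.93 FPKM for Nphp4, which encodes a scaffold of the transition zone, to 74.3 FPKM for Csnk2a1, the catalytic subunit of casein kinase 2, with a median of 7.17 FPKM. Between the highest and the lowest tissue mean the ratio ran from 1.10 for Inpp5e to 2.77 for Ahi1, with a median of 1.47. The highest of the 6 tissue means was in neural tissue for 16 members, in facial tissue for 10 and in limb for 5.

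Libraries differed in ways the tissues do not explain. Transcripts shorter than 200 bases took up 19.1 to 39.2% of the FPKM in the replicate 1 libraries and the top gene 14.2 to 36.0%, against 0.653 to 10.3% and 1.33 to 7.61% in the others, so the comparisons were also made after such transcripts were left out and each library was rescaled. The coverage that went with 1 FPKM was 2.70 to 5.51. Genes with short transcripts were read as higher, and genes with long transcripts as lower, in vB replicate 4 and, less so, in limb replicate 4 and dB replicate 4. The median deviation of the genes with a leading transcript of 200 to 1000 bases exceeded that of the genes over 5000 bases by 1.10 (log2) in vB replicate 4, by 0.79 in limb replicate 4 and by 0.56 in dB replicate 4, while the reverse held in the libraries numbered 2 of 5 tissues (−0.45 to −0.56). Those 5 libraries came from 1 sequencing run, and limb replicate 2, at 0.18, came from another. All replicate 1 libraries also shared a run. Limb and vB replicate 4 shared a run with MNP replicate 4 (0.10), while dB replicate 4 was in a different run. This touches the members, whose leading transcripts have 785 to 8006 bases. The leading transcripts of the members that were higher in neural tissue had a median of 2223 bases, and those of the members that were lower had one of 4264 bases. The comparisons were therefore repeated with the trend on length removed from each library and with the libraries numbered 4 of vB, limb and dB left out. Both were chosen after the data were seen. Leaving out those 3 libraries keeps the 5 with the reverse trend, so it does not remove the trend. The median difference between facial tissue and limb was then −0.03 for genes of 200 to 1000 bases and 0.06 for genes over 5000 bases. Replicates 1 to 3 and replicates 4 to 6 were sequenced in different runs, and counts are given for each set.

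The tissues carried the marker genes of their labels and of other cells. The summed level of 8 neuron markers was 512 to 1491 FPKM in neural libraries and 17.0 to 148 FPKM in facial and limb libraries, and that of 8 neural progenitor markers was 647 to 945 and 16.2 to 238 FPKM. The mesenchyme list had 597 to 1281 FPKM in facial tissue, 459 to 744 FPKM in limb and 182 to 392 FPKM in dB, but 6.59 to 341 FPKM in vB. The 8 surface epithelium markers summed to 100.5 to 250.4 FPKM in facial tissue and 97.0 to 174 FPKM in limb. Their sum was 17.2 to 22.6 FPKM in dB and 3.05 to 34.2 FPKM in vB, where Krt5 and Krt14 were at 0 in some libraries. Red blood cell markers summed to 4681 to 45560 FPKM in neural, 7799 to 33110 FPKM in facial and 10680 to 27020 FPKM in limb libraries. Markers of multiciliated cells, which build many motile cilia, summed to 6.35 to 18.3 FPKM in neural and 2.97 to 6.27 FPKM in facial and limb tissue. In such bulk samples fewer cells of a type and less RNA per cell cannot be told apart, and the part of cell composition in the results below was not tested.

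**Figure D1:**
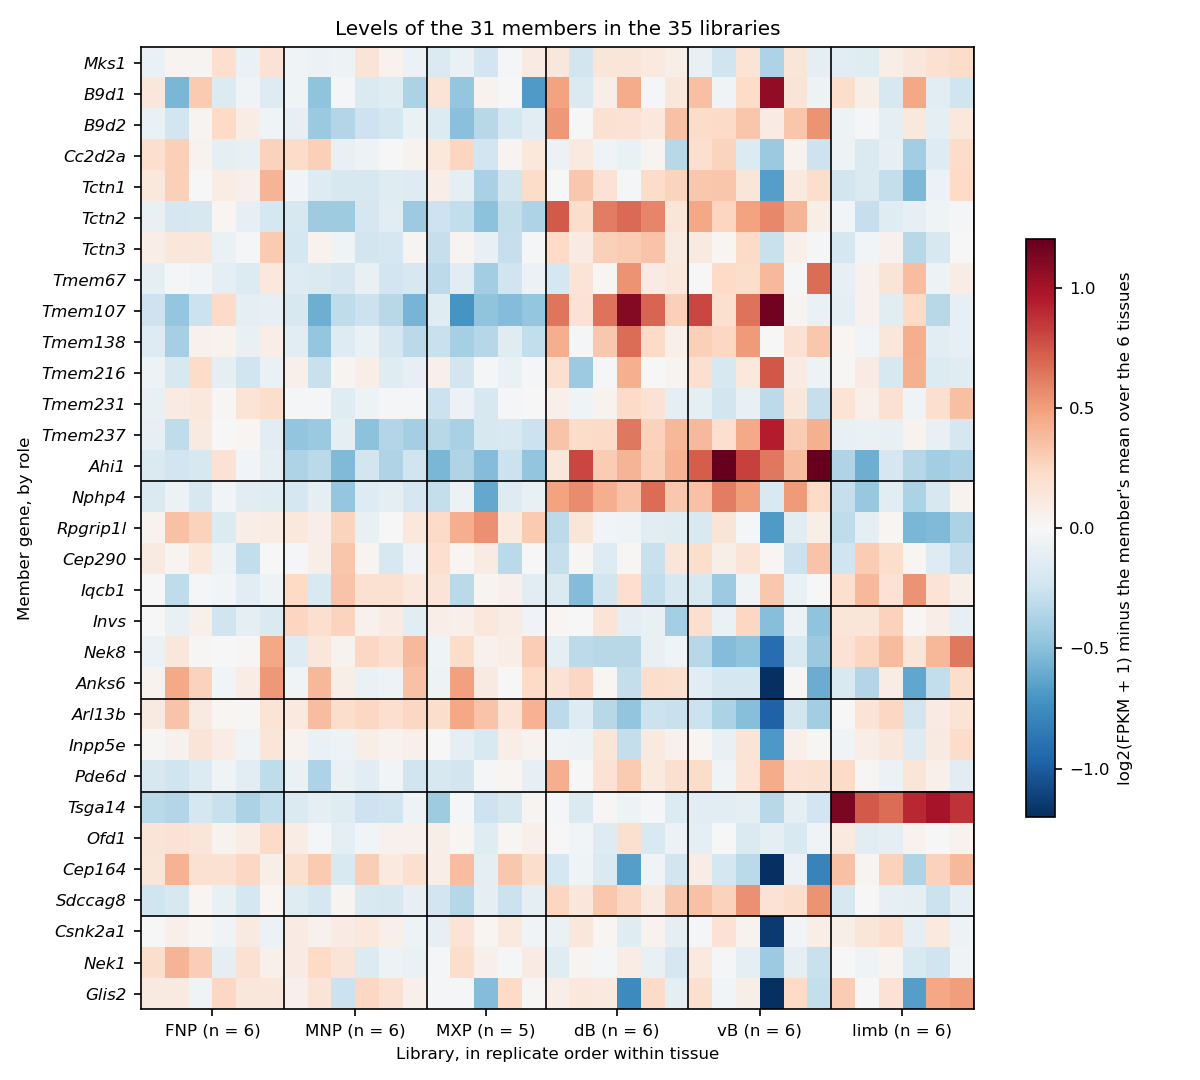
Levels of the 31 members (lines, grouped by role and divided by black lines) in the 35 libraries (columns, grouped by tissue), as log2(FPKM + 1) minus the mean of the member's 6 tissue means. Red is higher and blue lower: the upper block, the MKS and tectonic complex, is mostly red in dB and vB, Tsga14 is red in the 6 limb libraries, and vB replicate 4 stands out among the vB libraries.

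A 2-fold difference with an adjusted p under 0.05 between some pair of the 6 tissues was found for Ahi1, Tmem107 and Tsga14, that is 3 of 31 members, against 21.3% of all genes tested. With the adjusted p alone, 23 of the 31 members differed between some pair, against 63.7% of all genes. The 8 members with no difference in any of the 15 pairs were Mks1, Cc2d2a and Tmem216 of the MKS complex, Cep290, Invs, Inpp5e, Csnk2a1 and Glis2. Their fold differences were not shown to be absent. For all 8 the 95% confidence interval of the difference between neural and facial tissue lay within 1 on the log2 scale, as for 29 of the 31 members. With the length trend removed, Csnk2a1 and Invs were called lower in neural tissue than in limb (−0.18 and −0.23, adjusted p = 0.044 and 0.049 in limma). In replicates 1 to 3 alone 2 members reached the 2-fold difference (Ahi1 and Tsga14), and in replicates 4 to 6 alone 4 did (these, Tmem107 and Cep164). Tmem107 no longer reached it with quantile normalization, with the length trend removed, with the 3 libraries left out, or without MXP replicate 2.

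Between neural and facial tissue, 12 members were higher in neural tissue (26.8% of all genes were) and 7 were lower (26.8% of all genes). With the main settings none reached a 2-fold difference, which 11.3% of all genes did, though Ahi1 (0.91) passed it in some other settings. The median over the 31 members was 0.01 on the log2 scale against −0.02 over all genes. The MKS and tectonic complex gave 9 of the 12, with 9 of its 14 parts higher, 0 lower and 5 not called, and a median of 0.36. The role groups were drawn up with earlier results of these data known, so this count is a description of the group. Of the other 17 members 3 were higher and 7 lower. In replicates 1 to 3 alone 12 members were higher and 5 lower, and in replicates 4 to 6 alone 11 were higher and 3 lower. No share of all genes was counted in these sets. With the length trend removed, 13 were higher (28.6% of all genes were) and 6 lower (28.2% of all genes). Ofd1 then lost its call (adjusted p = 0.345 in limma) and Tsga14 gained one (log2 fold change 0.11). The 9 parts of the MKS complex were called higher there too. With the 3 libraries left out, Anks6 lost its call (adjusted p = 0.053 in limma), while Tctn1 was higher (0.23, adjusted p = 0.0025) and Iqcb1 lower (−0.22, adjusted p = 0.0030). Rescaling ended the calls of Nek1, Ofd1 and Tctn3. Anks6, B9d1 and Ofd1 were not called in replicates 1 to 3 alone, and in replicates 4 to 6 alone Anks6, Nek1, Ofd1, Rpgrip1l and Tctn3 were not.

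**Figure D2:**
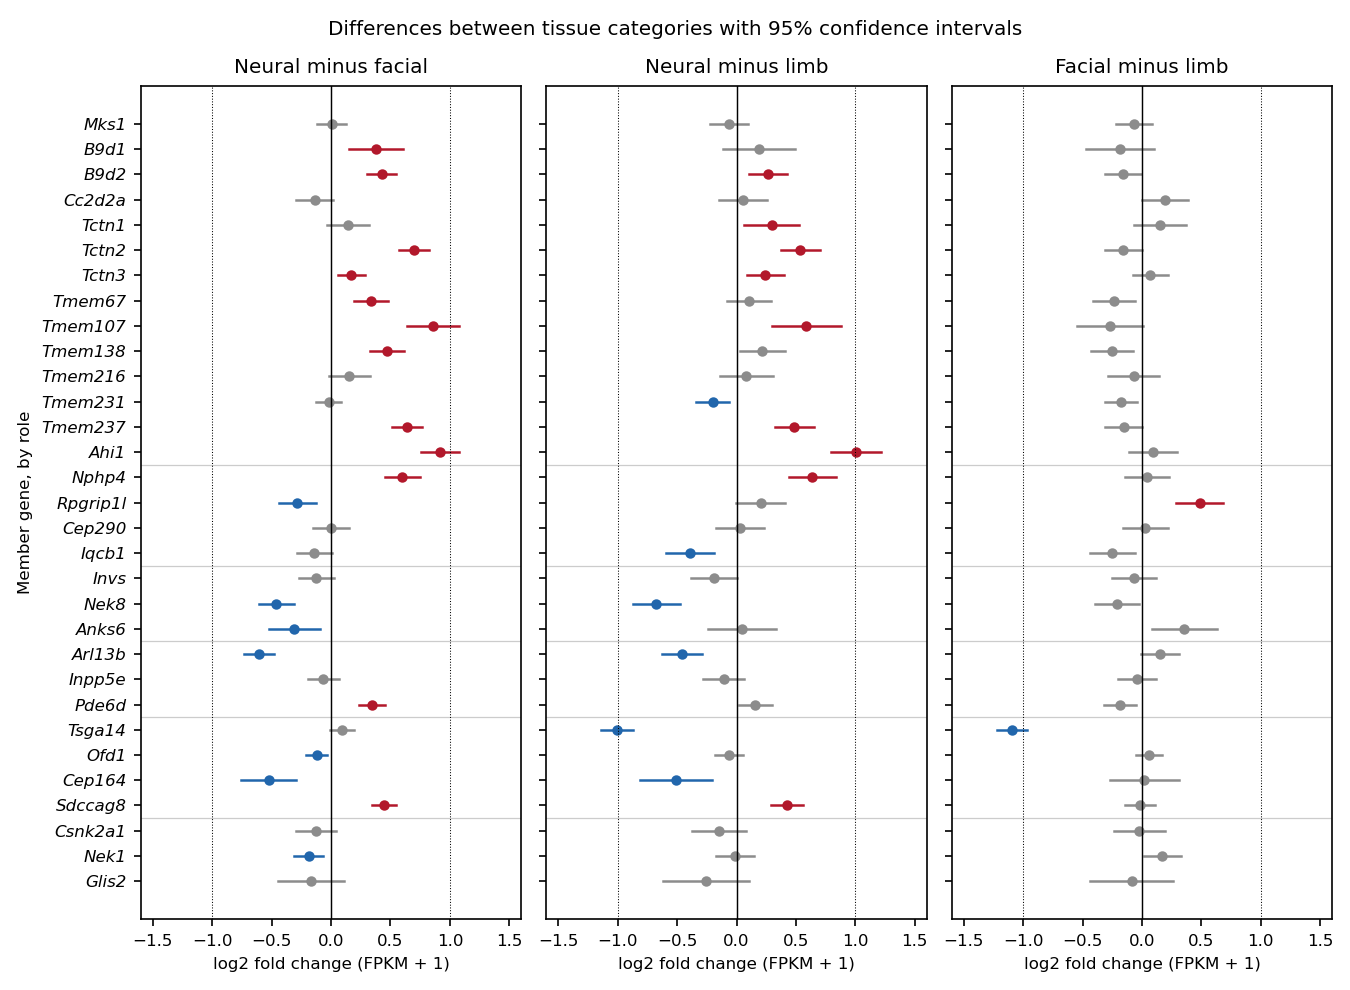
Log2 fold changes of the 31 members between the 3 tissue categories on the scale of log2(FPKM + 1), with 95% confidence intervals (bars). Red members were higher and blue members lower in the first category at an adjusted p under 0.05, grey members were not called, and dotted lines mark a 2-fold difference. The 9 red members of the upper block in the left panel are parts of the MKS complex, and the blue member beyond the dotted line in the middle and right panels is Tsga14.

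Ahi1, which encodes jouberin, a coiled coil and WD repeat protein of the transition zone that is also known from brain development, lies at chr10:20952547-21080429 (mm10). Its level was 11.0 to 22.9 FPKM in vB (median 14.7, n = 6), 9.09 to 15.02 in dB (median 10.8) and 6.85 to 9.39 in FNP (median 7.31). It was 5.38 to 6.90 FPKM in MNP (median 6.26), 5.14 to 7.03 in limb (median 6.13) and 5.27, 5.41, 5.62, 6.16 and 6.69 in the 5 MXP libraries. Every vB library was above every facial and limb library, while FNP replicate 4 was above the lowest dB library. How many of all genes separate vB in this way was not counted. The difference of Ahi1 between neural and facial tissue was 0.91 on the log2 scale (SE 0.08, adjusted p = 6.9e-12 in limma), and that between neural tissue and limb was 1.00 (SE 0.10, adjusted p = 7.7e-10). It was 2-fold higher in vB than in MNP, MXP and limb, with changes of −1.197 for MNP against vB, −1.29 for MXP against vB and 1.24 for vB against limb on the log2 scale. The difference between neural tissue and limb lies at the 2-fold limit, and it fell below that limit with quantile normalization (0.94), with the run as a factor (0.96), in replicates 4 to 6 alone (0.94) and with the length trend removed (0.97). The difference between neural and facial tissue passed the limit with 0.1 added in place of 1 (1.002) and in replicates 1 to 3 alone (1.05). Without FNP replicates 4 and 5 and vB replicates 1, 4 and 5 it was 1.08, and in replicates 4 to 6 alone 0.77.

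Ahi1 was also the 1 member called between dB and vB, where 3.04% of all genes were higher in dB and 1.46% higher in vB. Its difference was −0.47 on the log2 scale for dB against vB (SE 0.12, adjusted p = 0.018 in limma), and dB and vB libraries overlapped. The vB libraries with the highest Ahi1, replicates 2, 6 and 3 with 22.9, 20.2 and 15.3 FPKM, were also those with the highest sums of neuron markers (1336, 1491 and 1149 FPKM) and the lowest sums of mesenchyme markers (52.4, 6.59 and 22.6 FPKM). The other 3 vB libraries had 11.0 to 14.2 FPKM of Ahi1, 573 to 694 FPKM of neuron markers and 184 to 341 FPKM of mesenchyme markers. Other lists set the same libraries apart. Red blood cell markers summed to 4681, 5882 and 5771 FPKM in replicates 2, 6 and 3, against 12450 to 45560 FPKM in the other 3. Endothelium markers summed to 27.9, 17.7 and 21.6 FPKM against 53.3 to 62.2 FPKM, and neural progenitor markers to 945, 920 and 926 FPKM against 742 to 816 FPKM. The dB libraries had 512 to 970.5 FPKM of neuron markers and 9.09 to 15.02 FPKM of Ahi1. The part of the cell composition in the difference between dB and vB was not tested. Replicate 2 had the highest Ahi1 in both vB and dB and read long transcripts high there (−0.54 and −0.56), and the leading transcript of Ahi1 has 4851 bases. With the length trend removed the difference was −0.54 (adjusted p = 0.0071 in limma). In replicates 1 to 3 alone the difference was −0.56 (adjusted p = 0.11) and in replicates 4 to 6 alone −0.37 (adjusted p = 0.72 in limma), and it was not called after transcripts under 200 bases were left out and the libraries rescaled (adjusted p = 0.15). Without the 5 libraries FNP replicates 4 and 5 and vB replicates 1, 4 and 5, it was −0.74 (adjusted p = 1.8e-05). That set had been picked in an earlier look at these data as libraries that stand apart, and the 3 vB libraries it leaves are those with the highest Ahi1. For the other 30 members the interval of the difference between dB and vB lay between −0.47 and 0.81.

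**Figure D3:**
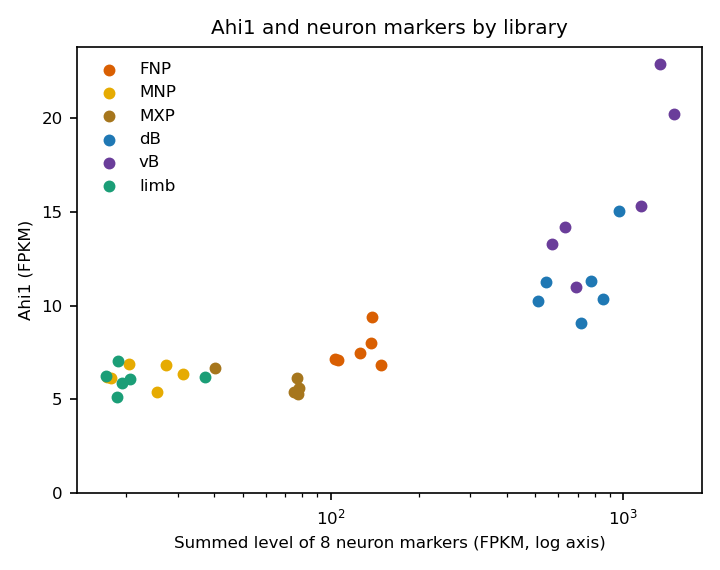
Level of Ahi1 (vertical axis, FPKM) against the summed level of 8 neuron markers (horizontal log axis, FPKM) in the 35 libraries, coloured by tissue. The 3 vB libraries with over 1000 FPKM of neuron markers have 15.3 to 22.9 FPKM of Ahi1, and the 6 dB libraries lie at 9.09 to 15.02 FPKM. The points share library depth and dissection, and no test was made on them.

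Tmem107, a small membrane protein of the transition zone that takes part in placing other parts of the MKS complex, lies at chr11:69070809-69073293. It had 9.89 to 19.7 FPKM in dB (median 14.1), 8.12 to 20.5 in vB (median 12.1), 6.64 to 10.4 in limb (median 7.98) and 5.98 to 10.3 in FNP (median 7.51). It had 5.40 to 7.43 FPKM in MNP (median 6.72) and 4.91, 5.74, 5.89, 6.01 and 7.74 in MXP. Neural libraries were above every MNP and MXP library, a separation not counted over all genes, and overlapped FNP and limb. The difference between neural and facial tissue was 0.86 on the log2 scale (SE 0.11, adjusted p = 3.0e-08 in limma), and that between MXP and dB was −1.06 (SE 0.17, adjusted p = 8.0e-06). Its leading transcript has 1039 bases, and the highest libraries of dB, vB and limb were those numbered 4, which read short transcripts high. With the length trend removed, its difference between neural and facial tissue was 0.80 (adjusted p = 4.6e-10).

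**Figure D4:**
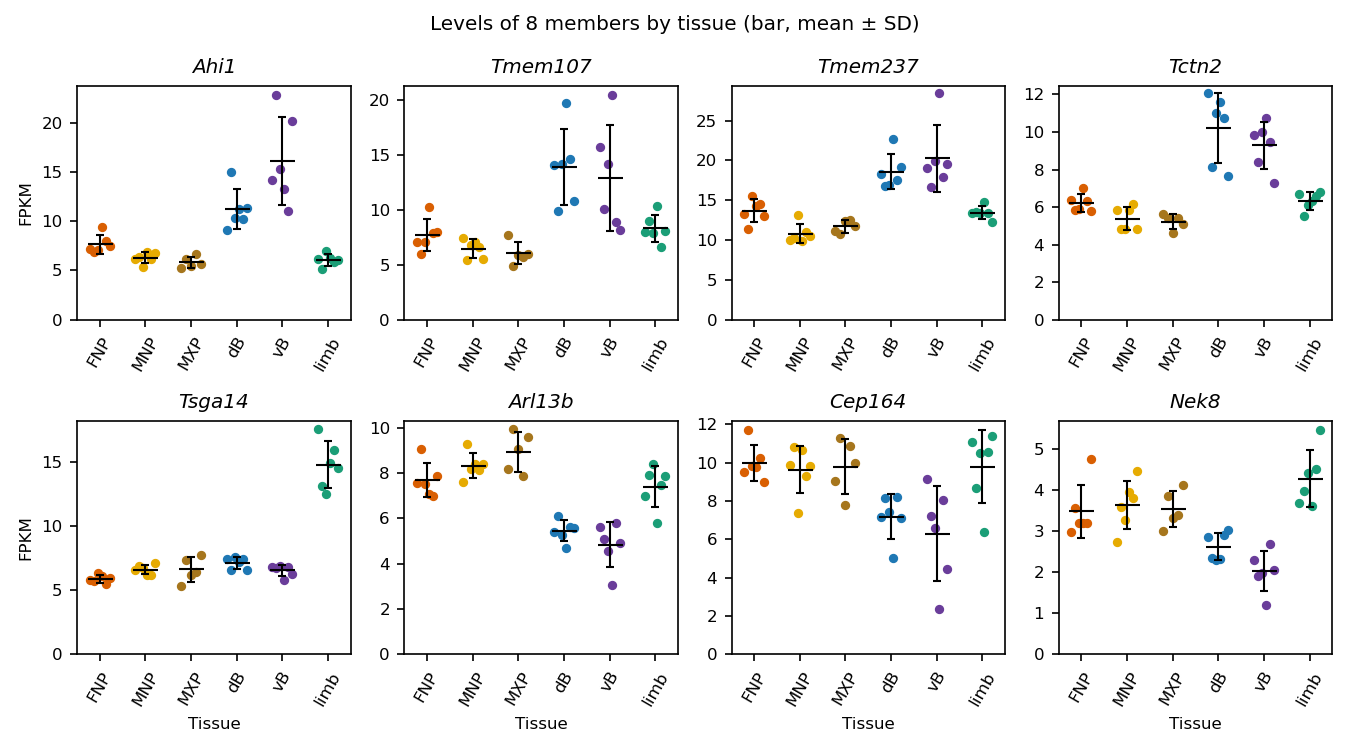
Levels of 8 members (vertical axes, FPKM, from 0) in each library of the 6 tissues, with the mean and SD of each tissue in black (n = 6, and 5 for MXP). Ahi1, Tmem107, Tmem237 and Tctn2 are higher in dB and vB, Tsga14 is higher in limb, and Arl13b, Cep164 and Nek8 are lower in dB and vB.

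Tmem237 and Tctn2 separated neural from facial libraries without overlap. Tmem237, a membrane protein of the transition zone, had 16.6 to 28.4 FPKM in neural tissue (median 18.7, n = 12) and 9.86 to 15.5 in facial tissue (median 11.8, n = 17), a difference of 0.64 on the log2 scale (SE 0.06, adjusted p = 8.4e-11 in limma). Tctn2, a tectonic, had 7.28 to 12.1 FPKM in neural tissue (median 9.94) and 4.60 to 7.01 in facial tissue (median 5.79), a difference of 0.69 (SE 0.06, adjusted p = 1.7e-11). Sdccag8, a protein of the centrosome and basal body, was the other member whose neural libraries all lay above the facial ones (3.91 to 5.69 against 2.60 to 3.67 FPKM), with a difference of 0.44 (SE 0.05, adjusted p = 2.8e-09). Of all genes tested 5.55% had every neural library above every facial library, and of the members 3 of 31 had. With fewer libraries 6 members had it in replicates 1 to 3 alone, 5 in replicates 4 to 6 alone and 6 without the 5 libraries named above. A separation is easier to reach with fewer libraries, and the share of all genes was not counted in these sets.

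Of the 3 tectonics, whose differences were not tested against each other, Tctn2 was higher in both neural tissues than in each prominence. Tctn3 was higher by 0.17 on the log2 scale (adjusted p = 0.012 in limma, 0.16 with rescaling and 0.25 in replicates 4 to 6 alone), from 5.41 ± 0.73 FPKM in the face (SD, n = 17) to 6.19 ± 0.82 FPKM in the brain (SD, n = 12). Tctn1 was not called between neural and facial tissue (0.14, 95% confidence interval of −0.03 to 0.32), while its difference between neural tissue and limb was 0.30 (adjusted p = 0.034). With the 3 libraries left out, among them vB replicate 4 with 2.25 FPKM, the first difference was 0.23 and called. The call against limb was lost with quantile normalization (0.14, adjusted p = 0.13), with rescaling (adjusted p = 0.091) and in replicates 4 to 6 alone (0.15, adjusted p = 0.69). Reads of Tctn1 may be shared with Hvcn1, whose transcripts overlap it, and no source read here says whether strand was used.

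Of the B9 domain proteins, Mks1 had 4.86 ± 0.74 FPKM in neural and 4.83 ± 0.48 FPKM in facial tissue (log2 fold change 0.01), and no tissue mean of it was above 5.16 FPKM. Its partners B9d1 and B9d2 were higher in neural tissue by 0.38 and 0.43 on the log2 scale (adjusted p = 0.0047 and 2.3e-07 in limma). B9d1 had 58.4 FPKM in vB replicate 4 and 24.1 to 38.6 FPKM in the other neural libraries, against 16.7 to 34.3 FPKM in facial tissue. Its difference with the 3 libraries left out was 0.27 (adjusted p = 0.016), but the call was lost without the 5 libraries named above (0.25, adjusted p = 0.070) and in replicates 1 to 3 alone (0.25, adjusted p = 0.18).

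Among the other parts of the complex, Tmem138 and Tmem67 were higher in neural tissue by 0.47 and 0.34 on the log2 scale (adjusted p = 7.8e-07 and 1.1e-04 in limma), while Cc2d2a, Tmem216 and Tmem231 were not called. Tmem67 is meckelin, a membrane receptor-like protein. Tmem138 and Tmem216 are neighbours on chromosome 19, 14646 bases apart and read from the same strand, and their proteins act in the transport of cargo to the cilium. Tmem138 had 23.1 ± 3.5 FPKM in neural and 16.4 ± 2.0 FPKM in facial tissue. Tmem216 had 24.3 ± 5.5 and 21.4 ± 2.0 FPKM, a difference of 0.15 (95% confidence interval of −0.02 to 0.32), and its transcripts overlap Cpsf7.

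Among the 4 members of the NPHP module and the anchors of the transition zone, Nphp4 was higher in the brain than in the face, with 1.49 to 3.52 FPKM (median 2.90) against 0.85 to 1.77 FPKM (median 1.55), a difference of 0.60 on the log2 scale (SE 0.07, adjusted p = 1.3e-08 in limma). At so low a level the added 1 matters, and with 0.1 in its place the difference was 0.85. Rpgrip1l, a large scaffold that anchors both modules, was lower in neural than in facial tissue (−0.28, SE 0.08, adjusted p = 0.0024), but not called in replicates 4 to 6 alone. Cep290, which links the gate to the axoneme, had tissue means between 3.20 and 3.77 FPKM and was not called in any pair. Iqcb1, a calmodulin binding protein of the same complex, was lower in neural tissue than in limb (−0.39, SE 0.10, adjusted p = 0.0013) and not called against facial tissue, where it was called with the 3 libraries left out (−0.22, adjusted p = 0.0030). Its call against limb was lost in replicates 4 to 6 alone (−0.26, adjusted p = 0.20), and its transcripts overlap Eaf2.

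Arl13b, a small GTPase of the ciliary membrane that is needed for Hedgehog signalling, was the member with the largest decrease in neural against facial tissue. It had 3.05 to 6.11 FPKM in neural tissue (median 5.32) and 6.98 to 9.95 in facial tissue (median 8.16), with no overlap, and 5.79 to 8.41 in limb (median 7.67). The difference was −0.61 on the log2 scale (SE 0.06, adjusted p = 5.2e-10 in limma), and −0.58 with the length trend removed. It was the 1 member with every facial library above every neural library, which 4.31% of all genes had, and after rescaling without transcripts under 200 bases the libraries overlapped. Stx19 lies within the transcripts of Arl13b, so that reads of both could be mixed. Inpp5e, the phosphatase that Arl13b brings into the cilium, had tissue means between 12.4 and 13.7 FPKM and no call in any pair. Pde6d, a chaperone that carries lipid-bearing proteins such as Inpp5e, was higher in neural tissue by 0.34 (SE 0.05, adjusted p = 9.6e-07), with 37.4 ± 4.0 against 29.1 ± 2.2 FPKM.

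In the inversin compartment, Nek8 and Anks6 were lower in neural than in facial tissue, and Invs was not called. Nek8, a kinase bound by Anks6, had 1.22 to 3.03 FPKM in neural tissue (median 2.31), 2.75 to 4.75 in facial tissue (median 3.40) and 3.62 to 5.48 in limb (median 4.20). Its difference from facial tissue was −0.46 on the log2 scale (SE 0.07, adjusted p = 2.0e-06 in limma) and that from limb was −0.67 (SE 0.10, adjusted p = 5.0e-07). Every neural library lay below every limb library for Nek8, and the share of all genes with this separation was not counted. Anks6 had 0.52 FPKM in vB replicate 4 and 1.31 to 3.13 FPKM in the other neural libraries, against 2.29 to 4.01 in facial tissue, a difference of −0.31 (SE 0.11, adjusted p = 0.014). Invs, the inversin that gives the compartment its name, had 3.51 ± 0.76 FPKM in neural and 3.86 ± 0.49 FPKM in facial tissue, and its transcripts overlap Tex10.

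Of the proteins of the basal body, centriole and axoneme, Cep164 and Ofd1 were lower in neural tissue. Cep164, which sits on the distal appendages that dock the cilium to the membrane, had 2.40 to 9.14 FPKM in neural tissue (median 7.19), 7.38 to 11.7 in facial tissue (median 9.83) and 6.41 to 11.4 in limb (median 10.5). Its difference between neural and facial tissue was −0.53 (SE 0.11, adjusted p = 1.8e-04 in limma), and −0.38 with the 3 libraries left out (adjusted p = 6.8e-05). Ofd1, a centriolar satellite protein encoded on the X chromosome, was lower by little (−0.12, SE 0.04, adjusted p = 0.018), and this call was lost with the length trend removed. Among the kinases and the nuclear factor, Nek1 was lower in neural tissue (−0.19, SE 0.06, adjusted p = 0.0078, but 0.057 with rescaling and 0.15 in replicates 4 to 6 alone), while Csnk2a1 and the zinc finger factor Glis2 were not called (−0.13 and −0.17, with 95% confidence intervals of −0.30 to 0.04 and −0.45 to 0.10).

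Tsga14 (Cep41), whose protein is needed for the polyglutamylation of ciliary tubulin, lies at chr6:30653457-30693682. It had 12.6 to 17.6 FPKM in limb (median 14.7, n = 6), 6.57 to 7.61 in dB (median 7.30), 5.77 to 6.88 in vB (median 6.78) and 6.16 to 7.15 in MNP (median 6.65). It had 5.53 to 6.39 FPKM in FNP (median 5.88) and 5.34, 6.17, 6.47, 7.41 and 7.75 in MXP. Every limb library was above every other library, which 0.825% of all genes had, and Tsga14 was the 1 member that did. The difference between facial tissue and limb was −1.09 on the log2 scale (SE 0.06, adjusted p = 1.4e-15 in limma), and that between neural tissue and limb was −1.004 (SE 0.07, adjusted p = 1.3e-14). The differences against FNP, MNP, MXP and vB were −1.18, −1.04, −1.05 and −1.06, and that against dB was −0.95. In replicates 1 to 3 alone the difference between facial tissue and limb was −1.07, and in replicates 4 to 6 alone −1.11. The difference between neural tissue and limb was −0.99 without vB replicate 4 and −0.94 in replicates 1 to 3 alone, which is under the 2-fold limit. It also lost its 2-fold call with rescaling and with the 3 or the 5 libraries left out. MNP lost it with rescaling and in replicates 1 to 3 alone, and vB in replicates 1 to 3 alone. MXP lost it with rescaling, in replicates 4 to 6 alone and without MXP replicate 1. FNP and facial tissue as a whole kept it throughout.

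Between neural tissue and limb, 9 members were higher in neural tissue (24.3% of all genes were) and 6 lower (20.6% of all genes). A 2-fold difference was reached by 2 members, Ahi1 and Tsga14, and by 12.4% of all genes. Of the MKS complex 7 of 14 parts were higher (Ahi1, Tmem107, Tctn2, Tmem237, Tctn1, B9d2 and Tctn3) and Tmem231 was lower (−0.20, SE 0.07, adjusted p = 0.017 in limma). Nek8, Arl13b and Cep164 were lower against limb as against facial tissue, and Nphp4 and Sdccag8 were higher against both. In replicates 1 to 3 alone 8 were higher and 5 lower, and in replicates 4 to 6 alone 5 were higher and 3 lower, with no share of all genes counted. With the length trend removed 11 were higher (25.1% of all genes were) and 8 lower (24.7% of all genes). Quantile normalization ended the calls of Tctn1 and Tctn3, and rescaling those of Tctn1, Tctn3, Cep164 and Tmem231. Tctn3 and Tmem231 were not called in replicates 1 to 3 alone, and in replicates 4 to 6 alone B9d2, Tctn1, Tctn3, Tmem107, Cep164, Iqcb1 and Tmem231 were not.

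Between facial tissue and limb, Rpgrip1l was higher in facial tissue (8.55% of all genes were) and Tsga14 lower (5.08% of all genes), and of these Tsga14 reached a 2-fold difference, which 2.62% of all genes did. Rpgrip1l had 3.79 to 6.82 FPKM in facial tissue (median 4.84) and 2.66 to 4.45 in limb (median 3.22), a difference of 0.49 on the log2 scale (SE 0.10, adjusted p = 4.8e-04 in limma). Its leading transcript has 6969 bases, and with the length trend removed the difference was 0.34 (adjusted p = 0.00275). Each set of replicates alone gave 1 higher and 1 lower. Without vB replicate 4, which is in neither category but enters the shared estimate of the spread, 7 members were called, and without MXP replicate 5 there were 4.

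Within the face 1 call was made over the 3 pairs. The members' median absolute difference on the log2 scale was 0.12 for FNP against MNP, 0.13 for FNP against MXP and 0.05 for MNP against MXP, against 0.10, 0.10 and 0.08 over all genes. FNP against MNP gave 1 call, Tmem237, which was higher in FNP by 0.32 on the log2 scale (SE 0.09, adjusted p = 0.029 in limma, not called in either set of replicates alone), where 5.55% of all genes were higher and 2.25% lower. FNP against MXP gave 0 calls in limma, where 4.65% of all genes were higher and 1.54% lower. MNP against MXP gave 0 calls, where 1.28% and 0.811% of all genes were called. At an unadjusted p under 0.05 in limma there were 6 members for FNP against MXP and 0 for MNP against MXP. The share of all genes at that unadjusted threshold was not counted. The 95% confidence intervals of all 31 members lay between −0.47 and 0.58 for FNP against MNP, between −0.47 and 0.66 for FNP against MXP and between −0.49 and 0.58 for MNP against MXP.

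The members were read mostly as 1 transcript each. Of their 89 transcripts 47 passed the filter, and for 23 of the 31 members 1 transcript held over 80% of the FPKM on average over tissues. At transcript level 5 of the 47 differed 2-fold between some pair of tissues, against 19.8% of all transcripts tested. They were the leading transcripts of Ahi1, Tmem107 and Tsga14, a shorter transcript of Ahi1 (uc007eof.1, chr10:21040820-21080429) and a further transcript of Tmem237 (uc007bde.1, which is not its leading one). For Tmem237, uc007bde.1 held 17.0 ± 5.6% of the FPKM in MXP (SD, n = 5) and 24.3 to 27.8% on average in the other tissues. The shorter transcript of Ahi1 had 2.68 ± 2.59 FPKM in vB and 0.32 ± 0.33 FPKM in MXP, with a spread between libraries as large as its level.

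The promoters of the members are shown for the motif best known in ciliary genes, the X-box, where RFX factors bind as pairs of half-sites. Promoter windows of RefSeq (GRCm38.p6, 250 bases before to 50 bases after the start) were at hand for 26 of the 31 members. The half-site GTTGCC was searched on both strands, and so was the paired form GTTNCC, 0 to 3 bases, GGNAAC, which can contain it. The half-site was in at least 1 window of 14 of the 26 members and of 14.1% of the 27025 genes with a window. The paired form was in windows of 5 of the 26, Mks1, Tctn1, Tctn3, Ahi1 and Cep41 (Tsga14), and of 0.936% of all genes. These 5 sites are printed because they include 2 of the 3 members with a 2-fold difference, with the half-sites in capitals and the spacer in lower case, 5′ to 3′ on the strand of the gene.
Cep41: GTTGCCcttGGCAAC
Ahi1: GTTACCtaGGCAAC
Tctn1: GTTGCCcgGGCAAC
Mks1: GTTGCCagGGGAAC
Tctn3: GTTGCCaGGTAAC

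The site of Cep41 lies at chr6:30693866-30693880 on the minus strand and begins at position −131 from the start. That of Ahi1, at chr10:20952568-20952581 on the plus strand, begins 21 bases after the start, and that of Tctn1, at chr5:122264411-122264424 on the minus strand, 36 bases after it. Those of Mks1 (chr11:87853191-87853204, plus strand) and Tctn3 (chr19:40612359-40612371, minus strand) begin at positions −24 and −140. The 150 bases before the start of Cep41, chr6:30693750-30693899 on the minus strand, are shown with the half-sites in capitals.
Cep41 promoter: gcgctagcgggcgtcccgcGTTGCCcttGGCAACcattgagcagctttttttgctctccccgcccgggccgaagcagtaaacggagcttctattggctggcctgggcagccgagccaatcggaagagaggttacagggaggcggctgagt
The 5 members with the paired form differed in their pattern: Cep41 was highest in limb, Ahi1 in vB and Tctn3 in dB, Tctn1 had like means in dB and FNP (4.77 FPKM each), and Mks1 was not called in any pair. No paired form was found in the windows of Tmem107, Tmem237 and Tctn2, and this says only that these letters are not there.

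Of a list of 54 other ciliopathy genes, 51 were tested. Of these, 16 were higher and 18 lower in neural than in facial tissue (26.8% and 26.8% of all genes were). In neural tissue against limb, 12 were higher and 8 lower (24.3% and 20.6% of all genes). In facial tissue against limb, 3 were higher and 0 lower (8.55% and 5.08% of all genes). Only Adamts9, an extracellular protease found at the base of cilia, reached a 2-fold difference between some pair of tissues, which 21.3% of all genes did. Its difference between neural and facial tissue was −1.11 on the log2 scale (SE 0.12, adjusted p = 1.3e-09 in limma). Dzip1, a basal body protein of the Hedgehog pathway, followed (−0.76, SE 0.12, adjusted p = 2.1e-06), and Cep55 had the largest difference upwards (0.70, SE 0.09, adjusted p = 1.4e-07). The median over the 51 was −0.01 between neural and facial tissue, against −0.02 over all genes.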

How the data were processed

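RNA-seq libraries of 6 tissues (6 each, 5 of MXP) were analysed. The authors deposited 1 table per library with FPKM estimated by Cufflinks for each transcript on mm10. The deposited tables also hold a coverage signal from the same estimates, which was used here only to describe depth. Bowtie2, DESeq2 and mm10 appear in the processing notes of the submitters, while no source read here gives the aligner and version that preceded Cufflinks. Counts were not at hand, so no interval was given for single values.

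Of 59120 transcripts, 65 whose name held a space were left out. FPKM was added up over the transcripts of each symbol. limma 3.58.1 under R 4.3.3, using its trend and robust options, then fitted 1 mean per tissue to log2(FPKM + 1) in all 35 libraries, for genes reaching a mean of 1 FPKM in any tissue. Categories were means of tissue means, and each contrast was Benjamini-Hochberg adjusted. The fit was tested on simulated data. Python 3.11.15, pandas 2.3.3 and matplotlib 3.10.9 served for summaries and figures.

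The members, role groups, related genes and marker lists were chosen with earlier results of these data known. All 31 members are named, with values by tissue for those that differed 2-fold, and up to 3 per role or related list. Alternatives were 0.1 added in place of 1, no low filter, quantile normalization, rescaling without transcripts under 200 bases, the replicate number or run as a factor, replicates 1 to 3 or 4 to 6, and single MXP libraries, vB replicate 4 or 5 libraries left out. Added after the data were seen were removal of a lowess trend on log10 transcript length and the fit without dB, vB and limb replicate 4.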

Additional observations from a re-analysis of the deposited data

Results flagged for a closer look

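In 15 of 186 combinations of member and tissue, 1 library lay apart from the others by more than Dixon's 95% critical value. Chance alone gives about 1 in 20, and 6 of the 15 were in vB replicate 4. There B9d1 had 58.4 FPKM (others 26.1 to 35.3), Tmem216 had 38.0 FPKM (others 19.5 to 25.5) and Tmem237 had 28.4 FPKM (others 16.6 to 19.9), while Tctn1 had 2.25 FPKM (others 4.56 to 5.44), Inpp5e had 7.68 FPKM (others 12.1 to 14.6) and Csnk2a1 had 32.8 FPKM (others 72.0 to 83.2). The 3 members that were high have leading transcripts of 785, 1096 and 1827 bases and the 3 that were low have ones of 2050, 4135 and 4204 bases. In dB, Mks1 had 4.01 FPKM in replicate 2 (others 5.16 to 5.49), Ahi1 had 15.02 FPKM in replicate 2 (others 9.09 to 11.3) and Cep164 had 5.02 FPKM in replicate 4 (others 7.14 to 8.21). In facial tissue, Tctn1 had 4.00 FPKM in MNP replicate 1 (others 3.49 to 3.64), Tmem216 had 26.2 FPKM in FNP replicate 3 (others 18.8 to 21.3), Tmem237 had 13.2 FPKM in MNP replicate 3 (others 9.86 to 11.0), Nphp4 had 1.05 FPKM in MNP replicate 3 (others 1.45 to 1.64), Nek8 had 4.75 FPKM in FNP replicate 6 (others 2.98 to 3.58) and Ofd1 had 3.92 FPKM in MXP replicate 3 (others 4.53 to 4.74).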

How the results depend on the processing

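No called difference of a member between neural, facial and limb tissue, between dB and vB or within the face changed direction under the alternatives run. Nor did any 2-fold difference of a member between a pair of tissues. The other ciliopathy genes named, such as Adamts9, were not followed through the alternatives. The number of members with a 2-fold difference between some pair was 5 with 0.1 added in place of 1 (Nek8 and Nphp4 were added), and transcripts then numbered 8 (3 in replicates 4 to 6 alone, and 3 with the 3 libraries left out). Facial tissue against limb changed most: 4 members with quantile normalization (3 lower), 4 with the run as a factor (3 lower), 7 without 5 libraries (3 higher, 4 lower) and 5 with the length trend removed (2 higher, 3 lower), and 2 lower with 0.1 added, with rescaling, or with the 3 libraries left out. Of all genes 8.65% were higher and 6.72% lower in facial tissue than in limb with the length trend removed. For the other alternatives no share of all genes was counted in any comparison. Leaving out 1 library, the count of members for facial tissue against limb ranged from 2 to 7 (1 to 2 higher and 1 to 5 lower). Neural tissue against limb fell to 8 members (5 higher, 3 lower) in replicates 4 to 6 alone, and 14 were higher with the run as a factor. The 7 members lower in neural than facial tissue fell to 3 in replicates 4 to 6 alone. For dB against vB the count was 2 with quantile normalization, with the length trend removed and without 5 libraries, and 0 with rescaling and in each set of replicates alone. For FNP against MNP it was 0 with quantile normalization and in each set alone, and 2 with the 3 libraries left out, and for FNP against MXP it was 1 with quantile normalization, the run as a factor or the length trend removed. Libraries with the same replicate number deviated together in 78 of 85 pairs (correlation over 0.1), and 32 of 35 libraries correlated best with their own number, so the numbers are a hint at pairing and not a design. With the replicate block Tmem107 no longer reached 2-fold between some pair, and 10 members differed between facial tissue and limb (3 higher, 7 lower), 3 between dB and vB, 4 between FNP and MNP and 2 between FNP and MXP. The tables give no counts, so small differences of members with few FPKM, such as Nphp4 and Anks6, have no counting error beside them.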
